A study of Mus musculus with 2 samples.

Results

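The BTB zinc finger genes encode transcription factors that join an N-terminal BTB (POZ) domain to zinc fingers near the other end of the protein. They were taken from the deposited gene table as every row with a single symbol that starts with Zbtb and a digit or reads Bcl6, Bcl6b, Patz1, Hic1 or Hic2, which gave 46 of 23309 rows. The table comes from lineage-depleted mouse bone marrow progenitors of genotype Cebpaf/f;CreER, which carry loxP-flanked alleles of Cebpa, the gene of the myeloid transcription factor C/EBPα, and a Cre recombinase that 4-hydroxytamoxifen (4OHT) activates. Cells of both groups carried the retroviruses MIGR1-HA-Hoxa9 and MIGR1-Flag-Meis1, which transform progenitors, and grew with IL3. The groups are vehicle, ethanol for 72 h, and 4OHT, 5 nM for 72 h, with 1 deposited sample each that joins 2 replicates. The promoter that drives CreER, the age of the mice and the number of animals are not given in the sources used here, and a 4OHT group without loxP-flanked Cebpa was not analysed here, so loss of Cebpa and other effects of 4OHT or Cre cannot be told apart.

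The BTB domain pairs these proteins with each other and binds corepressors such as NCOR1 and BCOR and the ubiquitin ligase scaffold CUL3, while the zinc fingers read DNA. Most members that have been studied act as repressors. In blood, PLZF, the product of Zbtb16, acts in stem cells and directs innate-like T cells, and its gene is fused to that of the retinoic acid receptor alpha in a rare form of promyelocytic leukaemia. BCL6 directs germinal centre B cells and follicular helper T cells, and LRF, the product of Zbtb7a, acts in lymphoid and in erythroid development.

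The finger is the part of these proteins that reads DNA, and the BTB domain was not searched for here. The coding bases of the first finger are printed for the 3 members that the results turn on, Zbtb16, Bcl6 and Patz1. They are read 5′ to 3′ from the GENCODE M21 transcripts, and capitals mark the codons of the cysteine pair and the histidine pair that hold the zinc ion.

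Zbtb16, finger 1: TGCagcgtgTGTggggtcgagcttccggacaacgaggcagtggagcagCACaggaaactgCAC

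Bcl6, finger 1: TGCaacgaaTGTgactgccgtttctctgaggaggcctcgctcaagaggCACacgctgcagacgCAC

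Patz1, finger 1: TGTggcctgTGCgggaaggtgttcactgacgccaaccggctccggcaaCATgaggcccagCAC

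A search of the longest complete coding sequence of each gene for this spacing (cysteines 2 to 4 codons apart, then 12 codons, then histidines 3 to 5 codons apart) found at least 1 finger in 45 of 46 members, with a median of 4 and a range of 1 to 14. Fingers of other spacing are not counted. PLZF had 9, BCL6 had 6, Patz1 had 7 and Zbtb41 had 14, the most. The first finger lay past the midpoint of the protein in 37 of the 45. The member without a match was Zbtb8os, whose coding sequence is 167 codons long and which is named for its place opposite Zbtb8a. It encodes archease, a cofactor of tRNA ligation, so its row is in the set by name and not by structure.

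Values are in FPKM, fragments scaled by transcript length and depth, so levels of different genes can be set side by side. Each gene has 1 value per condition, no spread between replicates can be given, and fewer cells of a type and less RNA per cell cannot be told apart. A gene was called, and is said to have risen or fallen, where the authors' deposited table gave it status OK and a q under 0.05. Cebpa itself had 109 FPKM with vehicle and 42.8 FPKM with 4OHT (q = 0.00165 by the authors' deposited table), so 39.2% of its level was left. Progenitor genes were present in both conditions, among them Cd34, Kit, Mpo and Ptprc, which encodes the pan-leukocyte antigen CD45. The defining genes of T and NK cells (10 genes, sums of 0.115 FPKM with vehicle and 0.136 FPKM with 4OHT) and of B cells (4 genes, sums of 0.149 and 0.125 FPKM) were near 0, with Cd3e, Cd3g, Cd4, Pax5 and Ms4a1 listed at 0 in both.

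One member rose after 4OHT, Zbtb16, and none fell. The authors tested 39 of the 46 members, and the call of 1 of them is 2.56%, against 5.91% of all 11953 tested rows called in either direction, 2.8% called higher and 3.11% called lower. At a q under 0.01 the same gene was called, against 1.72% of tested rows called higher. Zbtb16 had 2.18 FPKM with vehicle and 4.24 FPKM with 4OHT. That is a 1.94-fold rise (q = 0.00165 by the authors' deposited table, the smallest that table holds, shared by 363 tested rows). Its log2 ratio with 1 FPKM added to each value was 0.72, and 0.36 with 5 FPKM added. By level it stood at place 31 of the 45 finger genes in vehicle cells and at place 24 after 4OHT. Its fold took place 151 among the 335 rows called higher, and it falls short of a 2-fold rule, which 1.46% of all rows at 1 FPKM or more passed as higher.

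Zbtb16 spans positions 48462402 to 48644050 of chromosome 9 (mm9) in the deposited table. The nearest rows on either side, Nnmt and Htr3a, were listed at 0 in both conditions, 49219 and 63267 bases away, and no other row overlapped it. Marker genes of other stages and cell types were read beside it. Of 8 progenitor genes Kit rose from 20.1 to 32.8 FPKM and Cd34 from 284 to 493 FPKM. Another 5 had a lower value after 4OHT without a call, among them Hoxa9 (1010 and 868 FPKM), and the list's median log2 ratio was -0.06. Hoxa9 and Meis1, both among these 5, were also carried by the retroviruses. Whether their values include vector transcripts is not known here. Of 7 erythroid and megakaryocyte genes Itga2b, the gene of the platelet integrin CD41, rose from 40.3 to 88.8 FPKM, with list sums of 53.3 and 102 FPKM. Itga2b makes up most of those sums, and no other gene of that list was called. Among these, Pf4 (10.97 and 10.49 FPKM) had a lower value after 4OHT and Gata1 (0.609 and 1.23 FPKM) a higher one. Of 5 dendritic cell genes Flt3, which early progenitors also carry, rose from 10.3 to 23.1 FPKM, with sums of 11.1 and 23.9 FPKM. Flt3 makes up most of those sums, and no other gene of that list reached 1 FPKM. Itgax (0.292 and 0.582 FPKM) and Batf3 (0.453 and 0.171 FPKM) differed in opposite directions without a call. Of 6 listed mast cell and basophil genes Cpa3 and Gata2 rose, with list sums of 690 FPKM with vehicle and 1143 FPKM with 4OHT. Cpa3 (562 and 975 FPKM) makes up most of those sums. The others were not called, among them Mcpt8 (61.2 and 61.0 FPKM). Of 6 monocyte and macrophage genes Cd14, Ly6c2 and Cd68 fell, with sums of 752 and 486 FPKM. Of 7 late neutrophil genes S100a8 fell from 10.2 to 1.67 FPKM and Cxcr2 from 3.68 to 2.22 FPKM, with sums of 17.7 and 7.04 FPKM. Called genes of these lists thus lay in both directions. The part of such shifts in the Zbtb16 value was not tested. The T and NK cell genes, which mark lymphocytes that can carry PLZF, summed to under 1 FPKM in both conditions, as given above.

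**Figure D1:**
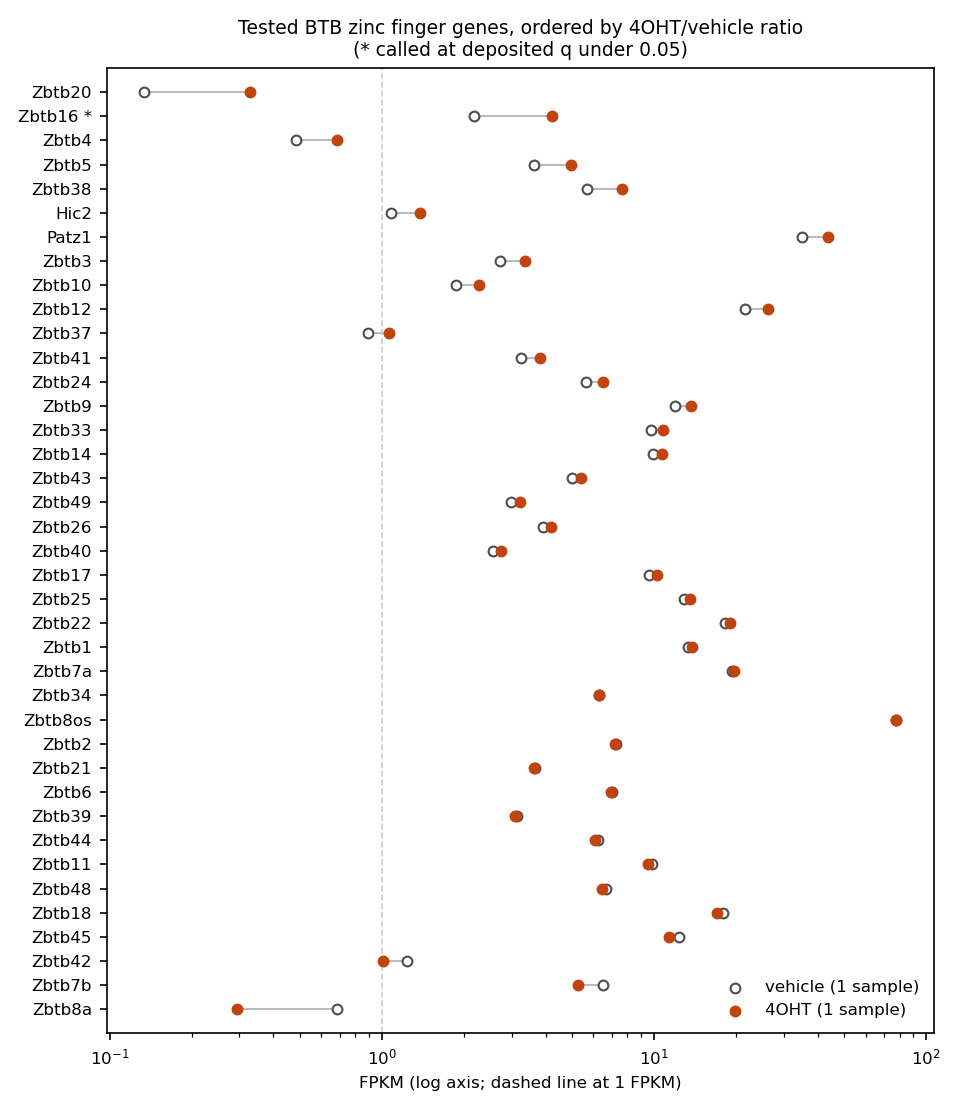
FPKM (log axis) of the 39 tested members in vehicle cells (open) and after 4OHT (filled), 1 sample each with no error bars, ordered by the ratio of the conditions. Zbtb16, marked with a star, moved from 2.18 to 4.24 FPKM, Zbtb20 and Zbtb8a moved further at levels below 1 FPKM without being called, and most other pairs of points touch or lie close together.

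BCL6, which shares the label of the family with PLZF, was barely present. Bcl6 had 0.0297 FPKM with vehicle and 0.0571 FPKM with 4OHT (mm9 chromosome 16, 23965138 to 23988698), and its close relative Bcl6b had 0.00519 and 0.0120 FPKM. Neither was tested by the authors, and at such levels no fold is given. Bcl6 stood at place 42 of 45 by level in vehicle cells. A further 5 members were not tested. They were Hic1, a gene often silenced by methylation in cancer (0.216 and 0.161 FPKM), Zbtb32, a regulator of lymphocytes (0.176 and 0.130 FPKM), and Zbtb46, a marker of classical dendritic cells (0.0321 and 0.0183 FPKM). Zbtb7c was listed at 0.00352 FPKM with vehicle and 0 after 4OHT, and Zbtb8b at 0 in both. The untested members thus include those best known from B cells, dendritic cells and lymphocyte activation.

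Members with roles in blood cells other than PLZF and BCL6 were mostly expressed, and none was called. Patz1, which encodes MAZR, a factor of thymocyte development, was the most abundant finger gene, with 35.2 FPKM with vehicle and 43.7 FPKM with 4OHT, 1.24-fold (q = 0.431 by the authors' deposited table). Zbtb7a, the gene of LRF, had 19.3 and 19.7 FPKM. Zbtb17, the gene of MIZ1, a partner of MYC in repression, had 9.60 and 10.2 FPKM. These 3 stood near their vehicle level, Patz1 with the widest gap. Zbtb7b, the gene of ThPOK, which commits T cells to the CD4 lineage, had 6.52 FPKM with vehicle and 5.25 FPKM with 4OHT (q = 0.622 by the authors' deposited table), and of the members at 1 FPKM or more it had the lowest log2 ratio, -0.27. Zbtb1, needed for lymphocyte development, had 13.3 and 13.9 FPKM. Zbtb24, mutated in a human syndrome of immunodeficiency and lost DNA methylation, had 5.61 and 6.52 FPKM. Zbtb20, a factor of plasma cells and liver, had 0.134 FPKM with vehicle and 0.329 FPKM with 4OHT, 2.45-fold (q = 0.112 by the authors' deposited table). In the whole list of 13 blood members, which counts Zbtb16, Bcl6 and Bcl6b as well, 8 reached 1 FPKM, 7 of the 8 had a higher value after 4OHT and 1 a lower one, and the median log2 ratio was 0.08.

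The members that bind methylated DNA had higher values after 4OHT, all without a call. Zbtb33, the gene of Kaiso, had 9.73 and 10.8 FPKM. Zbtb38 had 5.69 FPKM with vehicle and 7.61 FPKM with 4OHT, 1.34-fold (q = 0.231 by the authors' deposited table). Zbtb4 had 0.485 and 0.684 FPKM (q = 0.480 by the authors' deposited table). Zbtb38 therefore stands furthest from its vehicle level among those of the 3 that reached 1 FPKM, and its deposited locus also holds E030011O05Rik, with 0.571 and 2.09 FPKM. Of the HIC pair, Hic2, a repressor related to Hic1, had 1.08 and 1.38 FPKM.

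The remaining members have wider or less settled roles. Zbtb5 had 3.61 FPKM with vehicle and 4.96 FPKM with 4OHT, 1.37-fold (q = 0.214 by the authors' deposited table). After Zbtb16 it has the largest ratio of the members at 1 FPKM or more. Zbtb12 had 21.7 and 26.4 FPKM, Zbtb22 18.3 and 19.1 FPKM, and Zbtb18, the gene of RP58, a repressor in developing neurons, 18.03 and 17.1 FPKM. These took places 2, 4 and 5 by level among the finger genes in both conditions. Zbtb48, the gene of the telomere protein TZAP, had 6.69 and 6.42 FPKM. Zbtb42, a relative of Zbtb18, had 1.24 and 1.01 FPKM. Zbtb8os, the row without a finger, had 77.9 and 77.5 FPKM. It alone holds more FPKM than any finger gene, so sums over the set are given with and without it. The 46 rows summed to 371 FPKM with vehicle and 396 FPKM with 4OHT, and the 45 finger genes to 293 and 318 FPKM, 1.08 times as much.

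Zbtb8a had the widest gap in the lower direction among the tested members. It had 0.687 FPKM with vehicle and 0.294 FPKM with 4OHT, 2.33-fold lower (q = 0.0966 by the authors' deposited table). A threshold of q under 0.10 would call it lower, with 3.64% of all tested rows. Zbtb8os, which lies 6602 bases to the left of Zbtb8a on chromosome 4, did not share that gap and differed by under 1% between conditions. Zbtb8b, on the right, was listed at 0 in both conditions and so could show no gap.

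Among all 36 members at 1 FPKM or more, 23 had a higher value after 4OHT and 13 a lower one, or 63.9% higher, against 50.1% of the 10989 rows at that level. The median log2 ratio was 0.08 over these members and 0.00031 over all such rows. Of the 36, 33 lay within 1.3-fold of their vehicle level (91.7%, against 86.0% of all tested rows at 1 FPKM or more). The 3 beyond it were Zbtb16, Zbtb5 and Zbtb38, each with the higher value after 4OHT. Of the 33, 21 lay within 1.1-fold, from Zbtb45 (12.4 and 11.4 FPKM) at one end to Zbtb14 (9.89 and 10.8 FPKM) at the other. The other members, Zbtb2, Zbtb3, Zbtb6, Zbtb9, Zbtb10, Zbtb11, Zbtb21, Zbtb25, Zbtb26, Zbtb34, Zbtb37, Zbtb39, Zbtb40, Zbtb41, Zbtb43, Zbtb44 and Zbtb49, all belong to those 33, with values between 0.888 and 13.7 FPKM. With 1 value per condition no test of the family's median was possible, and medians this close to 0 are given as a description.

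**Figure D2:**
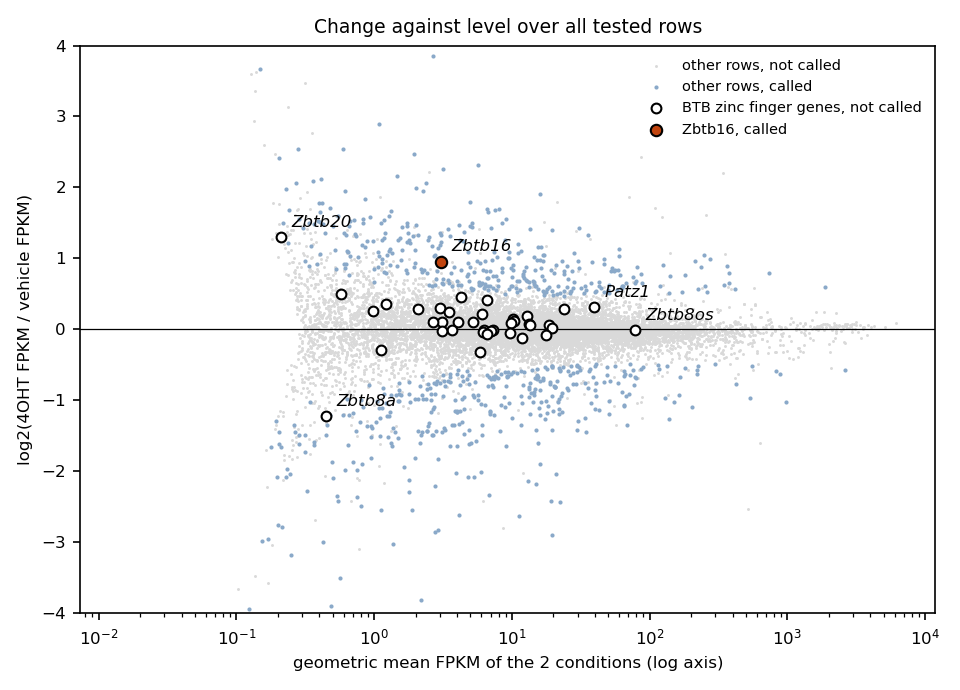
Log2 of the 4OHT to vehicle ratio, with nothing added, against the geometric mean FPKM (log axis) of the tested rows above 0 in both conditions; 15 of 11928 such rows lie beyond the vertical axis. The members (open circles) lie along the middle of the cloud at 1 FPKM and above, and Zbtb16 (filled) sits among the called rows.

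How small a change could have been called depends on level. Of the 39 tested members, 20 lay between 5 and 20 FPKM in their higher condition and 13 between 1 and 5 FPKM. The smallest fold that the authors' deposited table called was 1.41 in the first of those ranges and 1.49 in the second, over all rows. Of all tested rows with a 1.3 to 1.5-fold difference, 7.69% were called in the first range and 0.383% in the second, so differences of the size of Zbtb5 and Zbtb38 were seldom called. Below 1 FPKM, 35.4% of rows with at least a 1.9-fold difference were called, which is the range of Zbtb8a and Zbtb20. Between 1 and 5 FPKM, the range of Zbtb16, that share was 74.9%.

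Several members lie side by side in the genome. Zbtb1 and Zbtb25 are separated by 705 bases on chromosome 12, and had 13.3 and 12.9 FPKM with vehicle and 13.9 and 13.6 FPKM with 4OHT. Zbtb6 and Zbtb26 are 1248 bases apart on chromosome 2, with 7.04 and 3.90 FPKM with vehicle and 6.95 and 4.18 FPKM with 4OHT. Zbtb34 and Zbtb43 are 18963 bases apart on the same chromosome, with 6.30 and 4.99 FPKM with vehicle and 6.28 and 5.39 FPKM with 4OHT. Levels within these 3 pairs thus lay within a factor of about 2 of each other. Zbtb8os and Zbtb8a, the neighbours on chromosome 4, were far apart in level, with 77.9 and 0.687 FPKM under vehicle. None of these genes was called. Of the 92 nearest rows to the left or right of the members, 2 were called, Pik3ip1 beside Patz1 (17.5 to 26.8 FPKM) and Angptl2 beside Zbtb34 (5.93 to 8.91 FPKM). Many of the 92 were not tested and some are members themselves. Of all tested rows, 5.91% were called in either direction. In 7 members the deposited locus also holds another gene, among them Zbtb17 with Spen (12.5 and 12.2 FPKM) and Patz1 with Gm11944 (0.737 and 1.46 FPKM). The sources used here do not say whether the libraries kept strand. Each such gene has its own FPKM value, and how reads in any shared stretch were assigned is not known here.

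The promoters of the members were searched for the letters TTGCNNAA, which C/EBP proteins can bind, and TTCCTNGAA, which BCL6 can bind, on both strands of the 250 bases before to 50 after each start in the RefSeq table (build GRCm38.p6). These are different letters with no shared core. The table holds 40 of the 46 members. It has no entry for Zbtb16, Zbtb10, Zbtb40, Zbtb48, Bcl6b and Zbtb7c. TTGCNNAA was found for Zbtb2, Zbtb38 and Zbtb8os, 3 of 56 member promoters, against 10.8% of all 32851 promoters. TTCCTNGAA was found in 1 of the 56 member promoters, that of Bcl6, which is close to the 1.59% of all promoters. The bases before the start are printed for Bcl6, with the TTCCTNGAA match, and for Zbtb2, a finger gene with the C/EBP letters. Both lie on the minus strand, and the match is in capitals.

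Bcl6, chr16:23981284-23981533: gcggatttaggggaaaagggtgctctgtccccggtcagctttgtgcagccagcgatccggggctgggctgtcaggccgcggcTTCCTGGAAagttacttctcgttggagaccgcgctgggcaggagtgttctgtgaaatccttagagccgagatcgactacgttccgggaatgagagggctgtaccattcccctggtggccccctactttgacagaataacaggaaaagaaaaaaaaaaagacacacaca

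Zbtb2, chr10:4388109-4388358: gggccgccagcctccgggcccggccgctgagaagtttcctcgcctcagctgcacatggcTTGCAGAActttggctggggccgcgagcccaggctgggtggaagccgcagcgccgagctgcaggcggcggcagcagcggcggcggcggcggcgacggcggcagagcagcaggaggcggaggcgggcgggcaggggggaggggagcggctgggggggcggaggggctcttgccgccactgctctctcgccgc

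These matches describe the sequence alone. In the RNA data Bcl6 stayed at or below 0.0571 FPKM, and Zbtb2 had 7.26 FPKM with vehicle and 7.22 FPKM with 4OHT. Zbtb8os, with the C/EBP letters before its start, had 77.9 and 77.5 FPKM. Zbtb38, with the letters after its start, had the 1.34-fold difference given above, which was not called.

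Of the 22 listed genes whose proteins BTB zinc finger factors work with, 2 rose, beside 2.8% of all tested rows called higher. All 22 listed corepressor and cullin genes were tested and 21 reached 1 FPKM, the exception being Hdac9 (0.236 and 0.313 FPKM). Bcor, the gene of the BCL6 corepressor, rose from 16.8 to 23.5 FPKM, 1.40-fold (q = 0.0472 by the authors' deposited table). Cbfa2t3, the gene of ETO2, a corepressor of blood progenitors, rose from 17.99 to 25.4 FPKM, 1.41-fold (q = 0.0367 by the authors' deposited table). None fell. The most abundant were the deacetylase gene Hdac1 (141 and 126 FPKM), the scaffold gene Sin3b (102 and 110 FPKM) and Ctbp1 (79.2 and 86.3 FPKM), and none of them was called. Ncor1 had 36.7 and 38.5 FPKM and Cul3 50.9 and 52.9 FPKM. The list's median log2 ratio was 0.07, beside 0.08 for the members.

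Genes known as bound or repressed by BCL6 held 1 called gene of 16 tested, beside 5.91% of all tested rows called in either direction. Socs2, an inhibitor of cytokine signalling, rose from 41.2 to 60.5 FPKM (q = 0.0111 by the authors' deposited table). Prdm1, the plasma cell factor that BCL6 holds down in B cells, was not tested, at 0.180 and 0.0177 FPKM. Trp53 had 112 and 122 FPKM, Ccl3 54.1 and 45.6 FPKM and the CDK inhibitor Cdkn1a 43.3 and 52.3 FPKM, and these 3, the highest uncalled genes of the list, did not pass the test. The list's median was 0.10.

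Genes tied to PLZF, LRF or MIZ1 held 3 called genes of 13 tested, all higher. Kit, the stem cell factor receptor given above, rose 1.63-fold. Cdkn2b, the gene of p15, which MYC and MIZ1 repress together, rose from 7.70 to 12.8 FPKM (q = 0.0158 by the authors' deposited table). Bcl2l11, the gene of the death protein BIM, rose from 4.31 to 6.37 FPKM (q = 0.0479 by the authors' deposited table). Cdkn2a, whose ARF product LRF represses, had 20.01 and 28.8 FPKM (q = 0.118 by the authors' deposited table). Rara, the fusion partner of PLZF in leukaemia, had 10.3 and 7.73 FPKM, and Pml 18.1 and 15.6 FPKM. Myc, Ccna2 and Max were the highest uncalled genes, and Myc had 209 and 190 FPKM. The list's median was -0.03, so the calls lie in its upper tail. The targets of HIC1 held no call in 2 tested genes, of which Sirt1 had 10.5 and 10.3 FPKM. Across these lists and the other BTB genes below, 6 of 55 tested genes rose and none fell. Of all tested rows, 2.8% were called higher and 3.11% lower. Kit alone of the 6 had a q under 0.01. The lists were chosen with earlier results of these data known, so these counts are a description and no test of the lists.

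**Figure D3:**
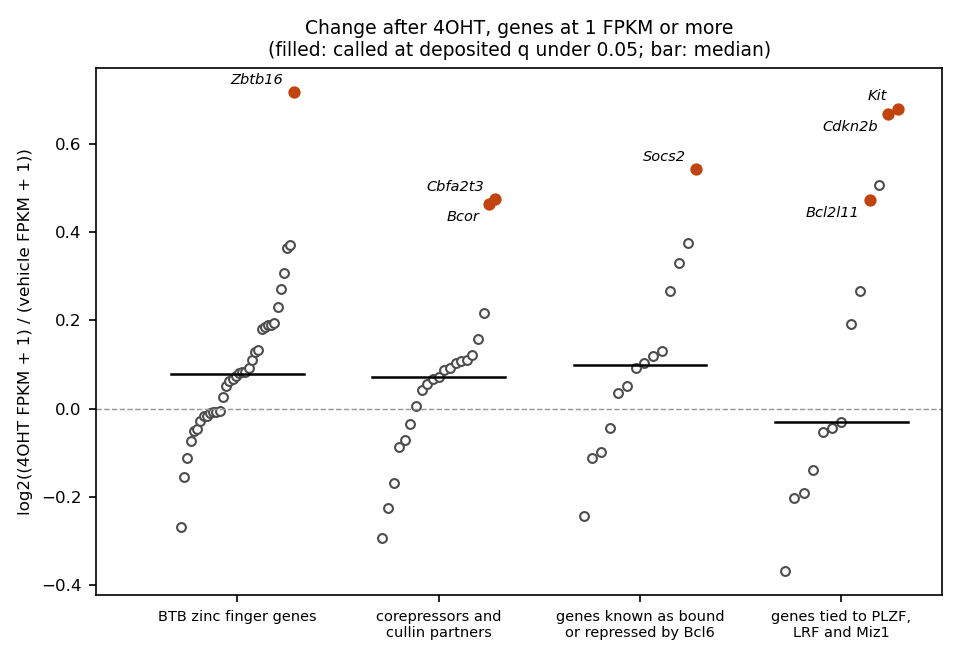
Log2 ratio of 4OHT to vehicle with 1 FPKM added to each value, for genes at 1 FPKM or more in the BTB zinc finger set and 3 lists of partners and known targets; filled points are called, bars are medians, and there are no error bars. Zbtb16 stands above every other member at 0.72, and the medians lie between -0.03 and 0.10.

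Other BTB transcription factors showed no call. Bach1, a repressor of haem and iron genes, had 16.1 and 14.5 FPKM, Nacc1 53.7 and 63.6 FPKM and Nacc2 2.10 and 1.98 FPKM, and Bach2, a lymphocyte factor, was below 0.1 FPKM in both. BTB zinc finger genes that the table carries under other names were Gzf1 (10.3 and 9.37 FPKM) and Mynn (6.05 and 6.31 FPKM), which did not pass the test, and Zfp651 and Zfp131, which were not tested. Zfp131 was listed at 0.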

How the data were processed

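RNA of 2 conditions, 1 sample each joining 2 replicates, was sequenced; per the labels' protocols, libraries were made from column-purified total RNA with an Illumina TruSeq kit. Tools listed in the submitters' processing notes, without a stated role, are Cuffdiff 2.0.2, Bowtie2 2.0.0.7 and CASAVA 1.8.2, and the build is mm9. The authors deposited 1 table that holds, per the file headers, an FPKM value for each gene in each condition, a test score, a p-value and q-value, and a fold ratio. The deposited score and fold column were not used further. Folds were computed from FPKM. The deposited p-values go no lower than 5e-05, shared by 363 tested rows. No test was run on these single values, and calls rest on the deposited q, whose test is not known. Absolute depth is unknown. In 69 rows the 4OHT value was 0.853 times the vehicle value to within a fraction of 0.0001, as equal small fragment counts would give, so a fragment counted for less after 4OHT, as in a deeper sample.

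Log2 ratios used a pseudocount of 1 FPKM, which understates the change of low genes, and members that reached 1 FPKM in either condition counted as measured. All tested members are given by value or range, with every called gene and up to 3 of the highest uncalled genes of each list. Of 145 list entries, 136 matched by symbol, 7 by an older symbol, 1 through a joined row and 1 not at all, and 2 further genes of the lists are not reported here. Coding sequences came from GENCODE M21, since no protein table was at hand, and promoters from RefSeq. The limits of 1.1, 1.3, 1.5 and 1.9-fold used to describe differences were set after the values were seen. Loci are those deposited on mm9, with starts written from 1. The members and lists were chosen with earlier results of these data known. Scripts (Python 3.11.15, pandas 2.3.3) were tested on simulated data.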

Additional observations from a re-analysis of the deposited data

How the results depend on the processing

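The single call held at a deposited q under 0.01, where Zbtb16 was again the 1 member called higher, and with calls kept to members at 1 FPKM or more. A rule of at least a 2-fold change with no use of q called 0 members higher, since Zbtb16 stood at 1.94-fold. That rule called 1.46% of all rows at 1 FPKM or more higher. At a q under 0.10 the members called lower went from 0 to 1, Zbtb8a, where 3.64% of all tested rows were lower. The median log2 ratio of the members stayed between 0.04 and 0.10 under pseudocounts of 0.1 and 5 FPKM, no floor, a floor of 5 FPKM, equal FPKM sums, centring and without Zbtb8os. Across 39 tested members and 156 alternative values, 17 moved by over 0.1, all by the pseudocount (that of Zbtb16 went from 0.72 to 0.93 with 0.1 FPKM added and to 0.36 with 5 FPKM added), and 6 members with log2 ratios within 0.017 of 0 (Zbtb34, Zbtb8os, Zbtb2, Zbtb21, Zbtb6 and Zbtb39) changed sign under equal FPKM sums. Of the related genes, Bcor, Cbfa2t3, Socs2, Cdkn2b and Bcl2l11 were lost at a q under 0.01. No paired analysis was possible because each condition is 1 value that joins its replicates, and for the same reason no replicate could be left out.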
